A study of Drosophila melanogaster with 44 samples.

Results

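The genes described here make and use small interfering RNAs (siRNAs) and microRNAs (miRNAs) in Drosophila melanogaster, together with hpRNA:CR18854, a long noncoding RNA that folds back on itself and is cut into siRNAs. They are 9 of 17807 genes in the deposited tables. The 8 protein-coding genes (Dcr-2, AGO2, r2d2, loqs, Dcr-1, AGO1, drosha and pasha) were taken by symbol for their known roles. Earlier results of these data were known when they were taken. hpRNA:CR18854 was chosen by its higher level in mutant ovary, so its values in that comparison, and in any other that uses the same wild-type ovary libraries, are given as a description with no test. The 12 mRNA-seq libraries came from whole ovaries of flies homozygous for the RN1-2 allele of mod(mdg4) (n = 3), from whole ovaries of wild-type flies (n = 3; both groups in the y1 w1118 background), and from cultured ovarian somatic cells (OSC) transfected with siRNAs against all variants of mod(mdg4) (Mod(mdg4)-All KD; n = 2), against variant N alone (Mod(mdg4)-N KD; n = 2) or against EGFP, a sequence foreign to the fly (EGFP KD; n = 2). mod(mdg4) encodes a family of BTB-domain insulator proteins by alternative splicing, and RN1-2 is a Cas9-made frameshift in the exon specific to variant N. The mutant is 1 line, fly age was not given in the sources used here, and OSC are a follicle-cell line with no germ cells.

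In the siRNA pathway of flies, Dicer-2 (Dcr-2) cuts long double-stranded RNA, from viruses, transposons or genomic hairpins, into short duplexes. Its partners R2D2 (r2d2) and Loquacious (loqs) help it to bind, cut and pass on the duplex, and Argonaute-2 (AGO2) holds the guide strand and slices matching RNAs. In the miRNA pathway, Drosha and its partner Pasha cut the primary transcript in the nucleus, Dicer-1 (Dcr-1) with another isoform of Loquacious cuts the precursor in the cytoplasm, and Argonaute-1 (AGO1) carries the miRNA to mRNAs that are then translated less and decay. Hairpin RNA genes such as hpRNA:CR18854 are transcribed by the fly itself, and siRNAs from this hairpin are known to target the mRNA of CG8289.

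hpRNA:CR18854 (FBgn0285991) lies on the minus strand of chromosome 2L at chr2L:9787294-9790745 of dm6, a span of 3452 bases. Counted along the gene from its first base, introns included, positions 460 to 821 and 1540 to 1909 formed the arms of the hairpin. Read antiparallel they were 78.3% complementary over 373 aligned positions, with no unbroken run over 15 bases. Between them lay 718 bases of the gene, introns included. Only A:T and G:C pairs counted as complementary here and below, so G:U pairs counted as unpaired. The arm nearer the 3′ end also matched the coding exon of CG8289, on chromosome X, in antisense. These stretches are printed because the first would give rise to siRNAs complementary to the second. In the 3′ arm stretch (chr2L:9788850-9789058, minus strand, positions 1688 to 1896) capitals mark the bases complementary to CG8289, and in the CG8289 stretch (chrX:17634731-17634941, minus strand) they mark the bases complementary to the 3′ arm. In the 5′ arm stretch (chr2L:9790066-9790273, minus strand, positions 473 to 680) capitals mark the bases complementary to the 3′ arm.
hpRNA:CR18854 3′ arm: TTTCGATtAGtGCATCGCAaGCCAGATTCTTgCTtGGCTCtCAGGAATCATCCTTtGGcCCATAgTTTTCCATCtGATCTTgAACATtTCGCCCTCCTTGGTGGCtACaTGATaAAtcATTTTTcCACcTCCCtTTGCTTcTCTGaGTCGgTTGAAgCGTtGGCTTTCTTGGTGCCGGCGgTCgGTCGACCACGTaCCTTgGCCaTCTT
CG8289 coding stretch: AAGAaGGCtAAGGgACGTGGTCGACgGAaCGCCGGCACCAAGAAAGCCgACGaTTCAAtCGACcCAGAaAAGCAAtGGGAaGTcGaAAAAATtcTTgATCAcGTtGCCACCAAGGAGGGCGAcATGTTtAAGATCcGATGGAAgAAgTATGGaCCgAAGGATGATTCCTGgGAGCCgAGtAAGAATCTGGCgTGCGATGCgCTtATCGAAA
hpRNA:CR18854 5′ arm: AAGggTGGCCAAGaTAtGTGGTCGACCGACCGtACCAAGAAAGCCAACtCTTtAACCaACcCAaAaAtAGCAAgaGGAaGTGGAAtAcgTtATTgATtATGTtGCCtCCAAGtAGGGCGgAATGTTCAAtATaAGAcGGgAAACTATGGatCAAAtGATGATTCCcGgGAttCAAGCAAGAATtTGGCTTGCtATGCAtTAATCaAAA
The 3′ arm and CG8289 were complementary at 179 of 211 aligned positions (84.8%), with a longest unbroken run of 19. In the printed 5′ arm stretch 168 of 208 bases were complementary to the 3′ arm. With G:U pairs left out of both, how completely either would pair as RNA was not measured. A shorter stretch at the start of the 3′ arm (positions 1540 to 1633) was 79.8% complementary to another part of CG8289 over 94 positions, with a run of 21. Positions 272 to 669 of the hairpin gene were 75.7% identical to CG8289 in the sense direction, over 416 aligned positions. This stretch began before the 5′ arm and was not within 1 exon in either gene. The hairpin gene has exons at 1 to 130 and 437 to 955, so part of the stretch was intron.

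The gene next to the hairpin, CG4036, starts on the opposite strand 136 bases away, so both genes share 1 upstream region (chr2L:9790746-9790881, plus strand as printed). It is shown because both genes that start from it had higher levels in mutant ovary. Capitals mark the copies of a direct repeat.
Shared upstream region: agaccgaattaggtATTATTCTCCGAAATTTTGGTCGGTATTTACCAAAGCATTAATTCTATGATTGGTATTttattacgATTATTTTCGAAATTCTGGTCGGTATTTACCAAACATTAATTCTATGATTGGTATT
The copies, at positions 15 to 72 and 81 to 136 of the region, were 93.1% identical over 58 aligned positions. The longest unbroken run found in both copies was CATTAATTCTATGATTGGTATT. It occurred in 2 of 23973 windows of 136 bases upstream of annotated genes (0.00834%), those of hpRNA:CR18854 and CG4036, which are the same region. The run was taken from this region, so these 2 matches were fixed in advance, and a run this long is seldom found elsewhere. Searched on both strands, the region held no TATAAA (found in 26.3% of windows), TATCGATA (4.31%), GAGAG (15.6%) or TCAGT (24.1%). These are descriptions of the letters and not of binding. Beyond the shared region, positions 1212 to 1468 of the hairpin gene were 93.4% identical to CG4036 in the same sense over 257 bases, of which 197 lay in exons in each gene.

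**Figure D1:**
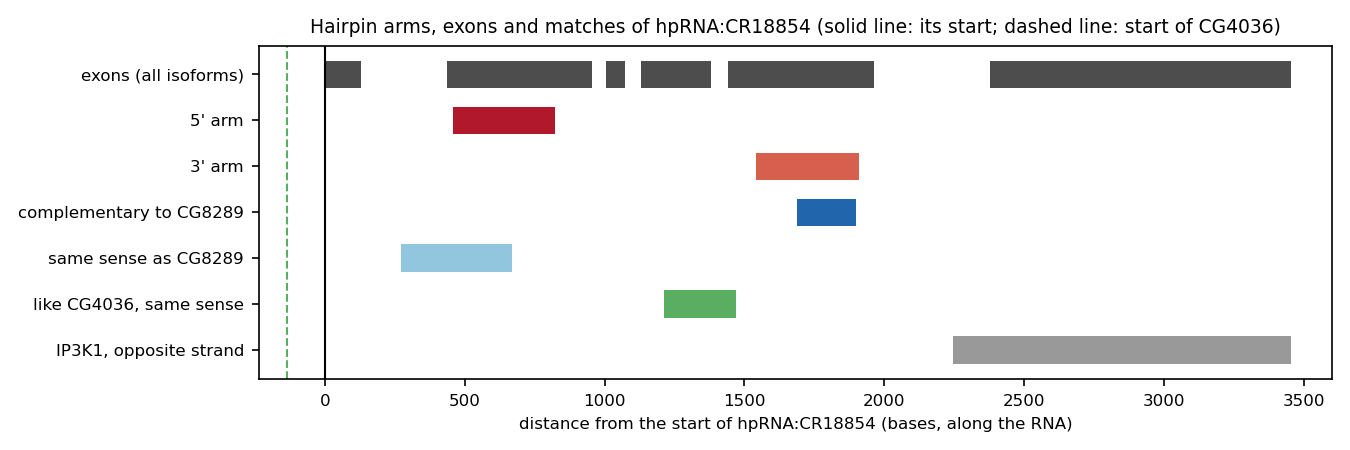
Map of hpRNA:CR18854 along the gene in the direction of the RNA, introns included. The horizontal axis gives distance from its first base in bases, with 1 feature per row. The arms (460 to 821 and 1540 to 1909) lie within exons, the stretch complementary to CG8289 lies inside the 3′ arm, and IP3K1 overlaps the far end of the gene on the opposite strand.

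In mutant ovary hpRNA:CR18854 stood at 293, 249 and 251 TPM (a level scaled for gene length and to the same sum in every library), against 31.3, 23.3 and 26.1 TPM in wild-type ovary. Every mutant library was far above every wild-type library, and the fitted difference was 3.28 on the log2 scale, or 9.69-fold, the value for which the gene was chosen. By size of rise it ranked 47 of 7934 genes tested in ovary. Over 14 other fits, each with 1 choice changed or 1 library left out, the log2 difference lay between 3.12 and 3.43. Whole ovary mixes germ cells and follicle cells. For every ovary result here and below, more or fewer cells of a type and more or less RNA per cell cannot be told apart.

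The 3′ end of the hairpin gene overlaps IP3K1, an inositol trisphosphate kinase gene on the opposite strand, over 1206 bases. The expected count of hpRNA:CR18854 was not a whole number in any of 12 libraries, but its sum with the count of IP3K1 was whole in all 12 (within 0.011), so read pairs from the overlap were divided between these 2 genes. Together they took 614, 522 and 503 CPM (counts scaled to the total of the library) in mutant ovary, against 105, 91.2 and 89.0 CPM in wild-type ovary, a ratio of means of 5.74. The groups did not overlap in this sum either, but the 9.69-fold value of the hairpin alone depends on how the pairs were divided. IP3K1 itself had 13.8, 21.4 and 24.9 TPM in mutant ovary and 25.1, 29.0 and 24.9 TPM in wild-type ovary, a log2 difference of -0.44 that did not pass the test (adjusted p = 0.115, edgeR). The counts of CG4036 were whole in all 12 libraries, with no sign of pairs divided between it and the hairpin despite the like stretch.

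In OSC the hairpin RNA was at a level between those of the 2 ovary groups. It had 105 and 93.9 TPM in Mod(mdg4)-All KD, 93.4 and 102 TPM in Mod(mdg4)-N KD, and 94.0 and 105 TPM in EGFP KD, so the knockdown and control libraries overlapped. The log2 difference was 0.10 for Mod(mdg4)-All KD (95% interval -0.13 to 0.34, adjusted p = 0.774, edgeR) and 0.02 for Mod(mdg4)-N KD (-0.16 to 0.20, adjusted p = 1), both against the same EGFP KD libraries. Wild-type ovary was 2.02 below EGFP KD OSC on the log2 scale, given with no test.

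**Figure D2:**
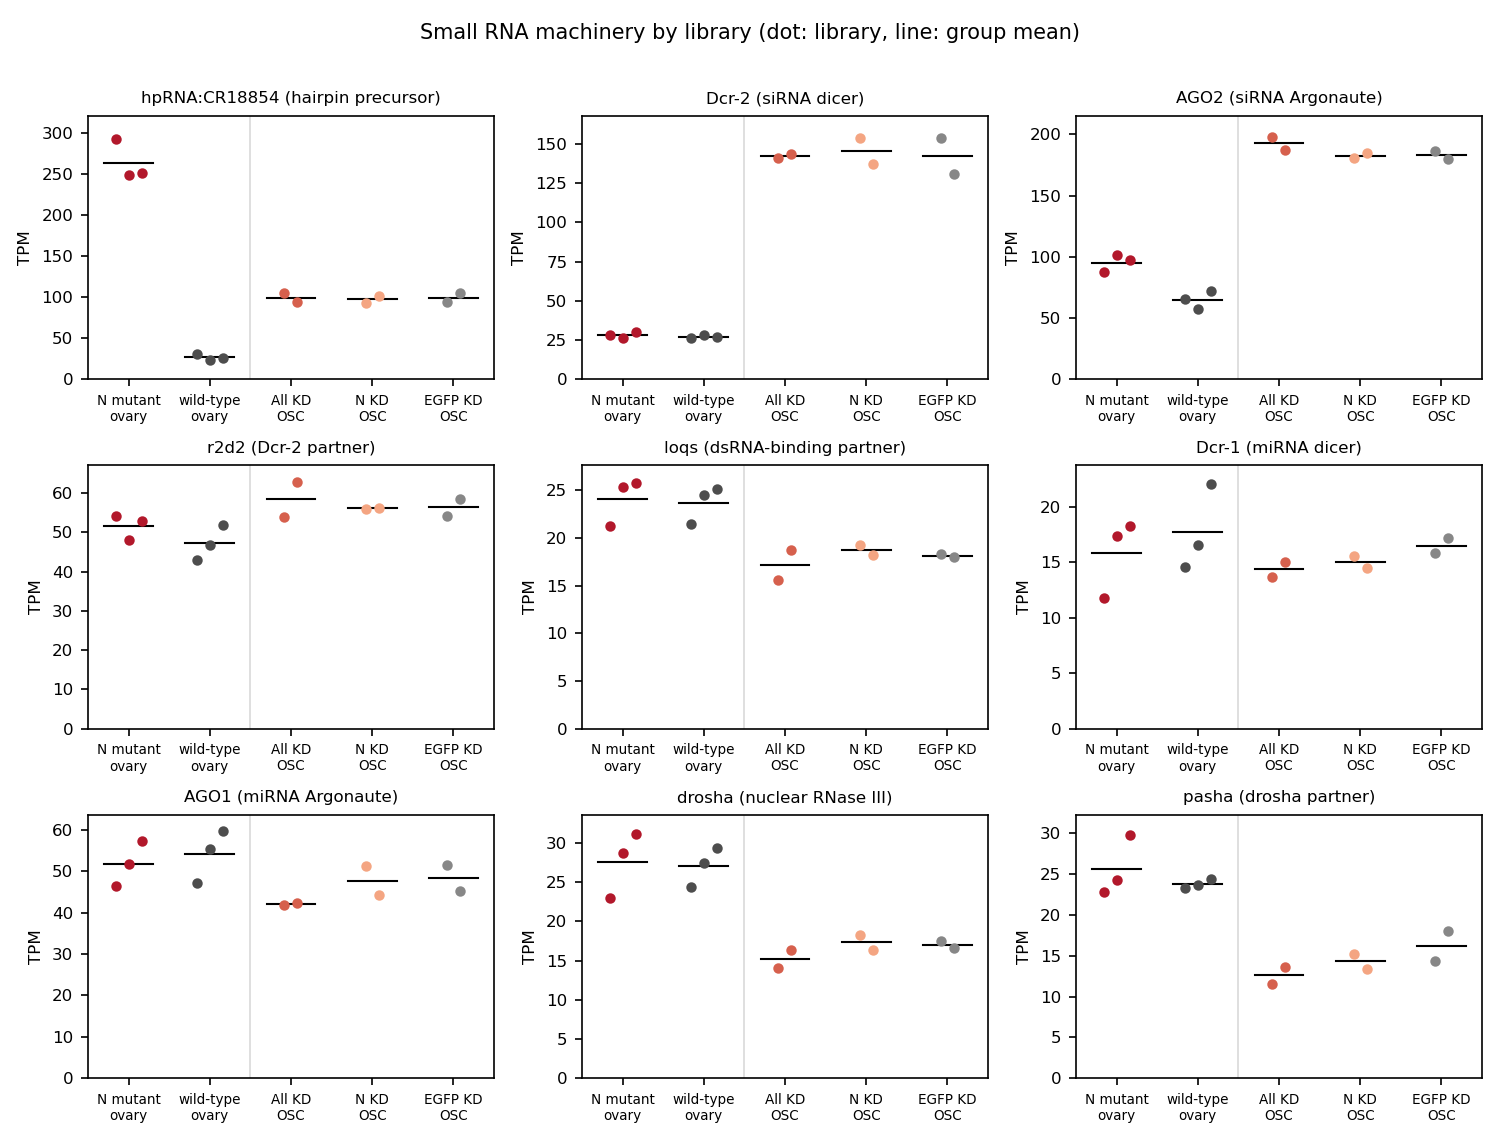
TPM of each gene (vertical axes, starting at 0) in every library, with dots for libraries, lines for group means and groups along the horizontal axis. hpRNA:CR18854 is near 265 TPM in mutant ovary against 27 TPM in wild-type ovary, and Dcr-2 and AGO2 are highest in the 3 OSC groups.

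Among the 8 protein-coding genes, AGO2 was the only one called in mutant against wild-type ovary. A gene was called where its Benjamini-Hochberg adjusted p over all genes tested was under 0.05 in edgeR's quasi-likelihood F test. In this comparison 18.1% of all 7934 genes were called, 11.7% as higher and 6.42% as lower in mutant, so 1 of 8 is close to the background share. The median log2 difference of the 8 was 0.03, beside -0.01 over all genes. With groups taken from the sample titles, 929 genes were called higher and 509 lower in mutant. The paper reports the reverse balance for these ovaries, with more downregulated than upregulated genes. The cause of this disagreement was not tested. Every direction given here between the ovary groups rests on those titles.

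AGO2, the slicer of the siRNA pathway (chr3L:15554113-15561042, plus strand), had 87.3, 102 and 97.0 TPM in mutant ovary, against 65.3, 57.0 and 71.9 TPM in wild-type ovary. All mutant libraries were above all wild-type libraries. The log2 difference was 0.54 ± 0.10 (SE), or 1.45-fold, with an adjusted p of 0.0206 in edgeR. The call was lost without mutant replicate 2 (0.50, adjusted p = 0.0846) or without wild-type replicate 2 (0.46, adjusted p = 0.0749). The end of AGO2 overlaps CG7739 on the opposite strand over 317 bases and the counts of both were fractional in all 12 libraries. CG7739 differed by 0.04 on the log2 scale (adjusted p = 0.749).

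The sum of 10 late follicle cell (eggshell) markers also differed between the ovary groups, at 33485 to 36355 TPM in mutant and 7697 to 27060 TPM in wild type. Wild-type replicate 1 was lowest for these genes, and without it AGO2 was still called (0.57, adjusted p = 0.0434, edgeR). That fit leaves the marker shift in place, as the highest wild-type sum (27060 TPM) was below the lowest mutant sum (33485 TPM). The sum of 7 germline markers was 1725 to 1771 TPM in mutant and 1413 to 1628 TPM in wild type, and that of 3 follicle and OSC markers 60.0 to 93.5 and 40.3 to 77.5 TPM in the same groups. Of the 10 eggshell markers 2 were called higher in mutant, and of the 7 germline markers 1 was called higher and 1 lower. The sum of 4 muscle markers was 40.5 to 72.8 TPM in mutant and 57.3 to 128 TPM in wild type, with 0 called in edgeR. Of 4 testis markers 1 was tested, bol, and it was called higher in mutant (log2 difference 1.24, adjusted p = 0.0147). Of 3 fat body markers 1 was tested, apolpp, at 0.58 to 5.02 TPM in mutant and 1.68 to 28.5 TPM in wild type (-2.30, adjusted p = 0.158). No defining germline or eggshell marker was at 0 in either ovary group, and the part of these shifts in the ovary results was not tested. In OSC the germline markers summed to 13.0 to 20.5 TPM, and the follicle and OSC markers to 177 to 215 TPM.

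The other siRNA genes did not differ beyond the spread between libraries. Dcr-2, the enzyme that makes siRNAs, had 27.9, 26.0 and 30.0 TPM in mutant ovary and 26.4, 27.9 and 26.8 TPM in wild-type ovary. These ranges overlapped, and its log2 difference of 0.02 had a 95% interval of -0.15 to 0.19 (adjusted p = 0.876, edgeR). In the same ovaries the hairpin RNA was 9.69-fold higher by its own counts. The sum of its counts with all those of IP3K1, from inside and outside the overlap, was 5.74-fold higher. The siRNAs themselves were not measured in these libraries. r2d2, whose protein senses which end of the duplex is more stable, had 54.3, 48.0 and 52.8 TPM in mutant and 42.9, 46.7 and 51.9 TPM in wild type, with overlapping ranges and a log2 difference of 0.13 (adjusted p = 0.368). loqs, which serves both pathways through different isoforms, had 21.2, 25.4 and 25.8 TPM in mutant and 21.5, 24.6 and 25.1 TPM in wild type, a log2 difference of 0.05 (adjusted p = 0.727). Gene-level counts do not separate its isoforms.

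The miRNA genes were flat in the same comparison, with log2 differences from -0.21 to 0.08. Dcr-1, the miRNA-producing Dicer, had 11.8, 17.4 and 18.3 TPM in mutant and 14.6, 16.6 and 22.1 TPM in wild type, and its interval was the widest of the 8 (-0.54 to 0.13). AGO1, the main miRNA effector, had 46.4, 51.6 and 57.2 TPM in mutant and 47.0, 55.4 and 59.6 TPM in wild type. In both genes the libraries of the 2 groups overlapped. drosha, which makes the first cut of a primary miRNA, had 23.0, 28.7 and 31.1 TPM in mutant and 24.4, 27.4 and 29.3 TPM in wild type. Its partner pasha had 22.8, 24.2 and 29.8 TPM in mutant and 23.3, 23.6 and 24.3 TPM in wild type. Adjusted p-values of the 4 genes in edgeR were between 0.398 and 0.968.

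**Figure D3:**
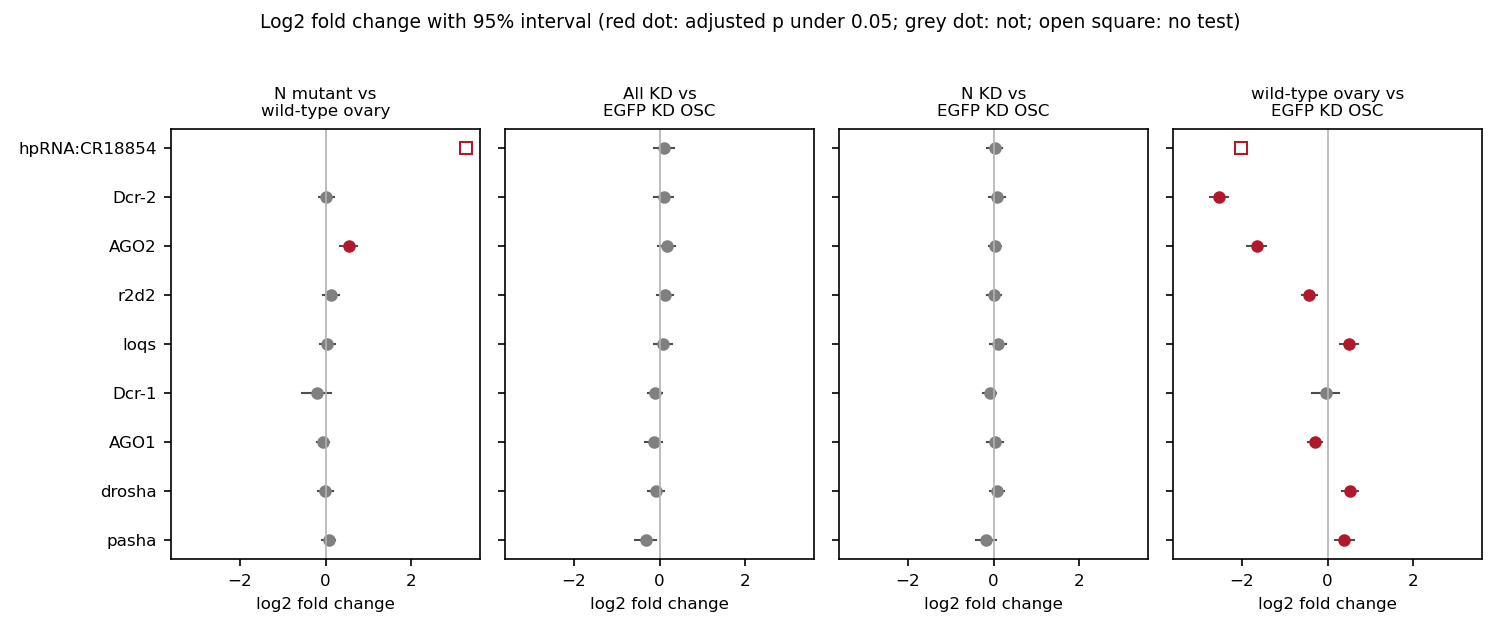
Log2 fold change of each gene (horizontal axis, with 95% intervals as bars) in 4 comparisons, 1 per panel. Red dots passed an adjusted p of 0.05, grey dots did not, and open squares mark hpRNA:CR18854 where it was not tested: AGO2 stands alone among the tested genes in the ovary panel, no gene passed in either knockdown, and 7 of 8 passed between wild-type ovary and EGFP KD OSC.

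Set against its miRNA counterpart within each library, AGO2 was at 1.70 to 1.97 times the TPM of AGO1 in mutant ovary and 1.03 to 1.39 times in wild-type ovary. The groups did not overlap and the difference of the means was 0.64, with a 2-sided exact permutation p of 0.1, the smallest that 3 against 3 libraries allow. The ratio of Dcr-2 to Dcr-1 was 1.50 to 2.37 in mutant and 1.21 to 1.81 in wild type, overlapping, with an exact permutation p of 0.6. OSC carried far more of the siRNA enzymes relative to the miRNA enzymes: AGO2 over AGO1 was 4.44 to 4.74 in Mod(mdg4)-All KD, 3.53 to 4.17 in Mod(mdg4)-N KD and 3.62 to 3.99 in EGFP KD, and Dcr-2 over Dcr-1 was 7.61 to 10.3 over the 6 OSC libraries.

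**Figure D4:**
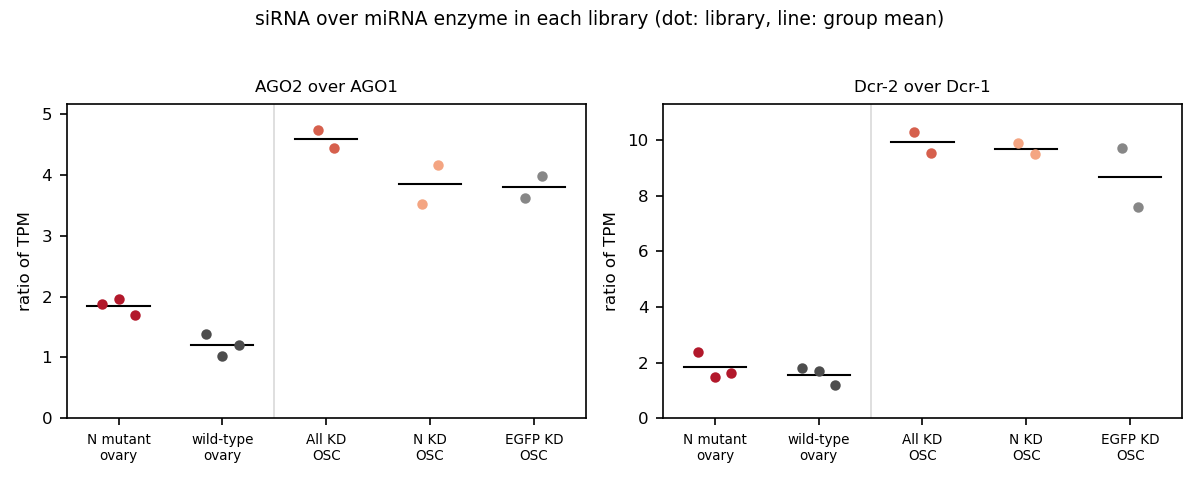
Ratio of TPM of AGO2 to AGO1 (left) and Dcr-2 to Dcr-1 (right) in every library, with dots for libraries and lines for group means. The AGO2 to AGO1 ratio of every mutant ovary library (1.70 to 1.97) is above that of every wild-type library (1.03 to 1.39), and all OSC libraries lie higher.

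No member was called in OSC after either knockdown. mod(mdg4) itself was at 62.2 and 73.0 TPM in Mod(mdg4)-All KD, 434 and 403 TPM in Mod(mdg4)-N KD and 478 and 448 TPM in EGFP KD. The total was thus strongly reduced only where all variants were targeted (log2 difference -2.47, adjusted p = 0.000366, edgeR), and gene-level counts cannot show the loss of 1 variant. In mutant ovary, where the frameshift need not change the amount of RNA, it had 359, 520 and 625 TPM, against 528, 627 and 792 TPM in wild-type ovary (log2 difference -0.42, adjusted p = 0.134). With the replicate number as a block the same difference passed (-0.42, adjusted p = 0.0198).

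With Mod(mdg4)-N KD the log2 differences of the 9 members lay between -0.18 (pasha) and 0.10 (loqs), and 0.0247% of 8106 genes were called in edgeR. With Mod(mdg4)-All KD they lay between -0.32 (pasha) and 0.16 (AGO2), and 1.1% of 8126 genes were called. Between the knockdowns (Mod(mdg4)-All over N) they lay between -0.18 (AGO1) and 0.11 (AGO2), and 1.15% of 8118 genes were called. DESeq2 and limma-voom called 0 members in all 3 comparisons as well, and at an unadjusted p under 0.05 edgeR gave 0, 1 and 0 members. The 1 was pasha in Mod(mdg4)-All KD, with 11.5 and 13.6 TPM against 14.3 and 18.0 TPM in EGFP KD (unadjusted p = 0.0434, adjusted p = 0.37). These 2 knockdowns share their EGFP KD libraries, so their values are not independent.

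The effect of Mod(mdg4)-N loss was also compared between ovary and OSC in 1 model over 10 libraries, where 3.31% of 9011 genes were called. It set a homozygous frameshift in whole ovary against an siRNA knockdown in cultured cells. Tissue, culture, strain and the mode and extent of variant N loss cannot be told apart in this comparison. None of the 8 protein-coding members was called in edgeR. AGO2 came nearest, with an effect 0.48 ± 0.14 (SE) larger in ovary on the log2 scale (unadjusted p = 0.00767, adjusted p = 0.0997); it was the only one with an unadjusted p under 0.05. DESeq2 called it (adjusted p = 0.0207), as did limma on log2(TPM + 1) at the edge of the threshold (0.56, adjusted p = 0.05 after rounding), and limma-voom did not, with adjusted p-values over all alternatives between 0.0207 and 0.31. For hpRNA:CR18854 the difference was 3.24, given with no test.

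Wild-type ovary and EGFP KD OSC differed in most of these genes, as they did in 68.8% of 8685 genes tested (35.5% higher and 33.3% lower in wild-type ovary), and tissue, culture, strain and transfection cannot be told apart in this comparison. 7 of the 8 protein-coding members were called, 3 higher and 4 lower in wild-type ovary. The siRNA genes were lower in ovary: Dcr-2 averaged 27.0 ± 0.75 TPM in wild-type ovary (SD, n = 3) and 142 ± 16.3 TPM in EGFP KD OSC (SD, n = 2), a log2 difference of -2.53 (adjusted p = 2.54e-05, edgeR). AGO2 averaged 64.8 ± 7.49 and 183 ± 4.35 TPM in the same order of groups, wild-type ovary and EGFP KD OSC, a difference of -1.66 (adjusted p = 0.000124). r2d2 differed less, by -0.43 (adjusted p = 0.00742), and was not called on log2(TPM + 1) (-0.26, adjusted p = 0.0818, limma).

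The genes of nuclear miRNA processing and loqs went the other way. drosha averaged 27.0 ± 2.48 TPM in wild-type ovary and 17.0 ± 0.651 TPM in EGFP KD OSC, a log2 difference of 0.53 (adjusted p = 0.00393, edgeR). It was not called without EGFP KD replicate 2 (0.40, adjusted p = 0.0568). loqs was higher in wild-type ovary by 0.49 (adjusted p = 0.00876), a call lost without EGFP KD replicate 1 (0.43, adjusted p = 0.0716) or 2 (0.37, adjusted p = 0.1). pasha was higher by 0.39 (adjusted p = 0.0272), a call lost without wild-type replicate 1 or 2 (adjusted p = 0.0513 and 0.0584) and without EGFP KD replicate 1 (0.15, adjusted p = 0.292). Dcr-1 differed by -0.04 (interval -0.35 to 0.28, adjusted p = 0.843). AGO1 was lower in wild-type ovary by -0.29 with counts scaled by TMM (adjusted p = 0.0266), but higher by 0.16 on log2(TPM + 1) (adjusted p = 0.322, limma), so its direction rests on the scaling. On the TPM scale the median of all genes tested was 0.14, against 0.02 in scaled counts. The call of AGO1 was also lost without wild-type replicate 1 or 2 or EGFP KD replicate 1 (adjusted p = 0.0532, 0.0856 and 0.0593).

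Ordered by mean TPM, wild-type ovary had AGO2 (64.8), AGO1 (54.0) and r2d2 (47.2) at the top, with ranges that overlapped from each to the next. drosha, Dcr-2, hpRNA:CR18854, pasha, loqs and Dcr-1 followed between 27.0 and 17.7 TPM, and each overlapped its neighbour in the order. In mutant ovary the hairpin RNA came first (264 TPM), apart from AGO2 (95.3 TPM), which in turn stood apart from AGO1 and r2d2 (51.7 TPM each). In all 3 OSC groups the order was AGO2, Dcr-2, hpRNA:CR18854, r2d2 and AGO1, with no overlap between neighbours, and loqs, drosha, Dcr-1 and pasha lay at 12.6 to 18.7 TPM.

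Other proteins of the siRNA effector complex were examined as a list of 14 genes. In ovary 13 passed the filter on low counts, and 3 rose in mutant ovary and 0 fell in edgeR, with a median log2 difference of 0.18 beside -0.01 over all genes. Over all genes 11.7% were called higher. DESeq2 and limma-voom gave the same 3 genes, and in the fit blocked by replicate number 5 rose, Rm62 and Hen1 being added, where 14.8% of all genes were called higher.

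The largest change was in vig, which encodes a protein found with AGO2 in the RNA-induced silencing complex (chr2L:15062931-15070316, minus strand). It had 350, 249 and 271 TPM in mutant ovary, against 65.3, 54.7 and 58.8 TPM in wild-type ovary, with no overlap. The log2 difference was 2.22 ± 0.21 (SE), or 4.65-fold (adjusted p = 0.00414, edgeR), and it was called in all 14 alternatives (adjusted p at most 0.0282). vig lies wholly inside vas, the germline RNA helicase gene, on the opposite strand. The count of vig was whole in all 12 libraries, and vas went in the other direction, with a log2 difference of -0.50 (adjusted p = 0.0222). In OSC, vig had 231 and 217 TPM in Mod(mdg4)-All KD, 253 and 261 TPM in Mod(mdg4)-N KD and 262 and 236 TPM in EGFP KD, and was called in neither knockdown. The effect of Mod(mdg4)-N loss was 2.09 ± 0.27 (SE) larger in ovary than in OSC (adjusted p = 0.00856), a call lost without Mod(mdg4)-N KD replicate 1 (2.08, adjusted p = 0.0777) or 2 (2.14, adjusted p = 0.066).

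The other 2 changes on that list were smaller, and both were in chaperones that open AGO2 for loading of the duplex. Hsc70-4 had 5288, 5365 and 5268 TPM in mutant and 3575, 3219 and 3383 TPM in wild type (log2 difference 0.62, adjusted p = 0.0211, edgeR). Hsp83 had 2934, 2799 and 2973 TPM in mutant and 1965, 2326 and 1986 TPM in wild type (0.44, adjusted p = 0.0492). In both genes no mutant library overlapped a wild-type library. Hsc70-4 lost its call in 4 of 14 alternatives, among them those without mutant replicate 2 and without wild-type replicate 2 or 3 (adjusted p = 0.109, 0.11 and 0.0671). Hsp83 lost it in 10 of 14, whichever of the 6 libraries was left out (adjusted p 0.0593 to 0.158).

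Of 14 miRNA effector and decay genes, 1 rose and 0 fell in mutant ovary in edgeR, beside 11.7% and 6.42% of all genes, with a median of -0.06. It was PAN3, a subunit of the PAN2-PAN3 deadenylase, with 89.7, 108 and 122 TPM in mutant against 79.1, 75.7 and 60.2 TPM in wild type (0.53, adjusted p = 0.0488), and it lost its call in 8 of 14 alternatives, leaving out any library but wild-type replicate 1 among them (adjusted p 0.0578 to 0.143). With the replicate block PAN3 was lost (0.54, adjusted p = 0.0525), while twin and Edc3 were called as lower, as were 14% of all genes in that fit. DESeq2 called PAN3 and Edc3 and limma-voom PAN3. Of 5 nuclear cap-binding and export genes, edgeR and limma-voom called 0, DESeq2 called Ran, and 1 (Ran) had an unadjusted p under 0.05. Of 4 genes that trim, tail or methylate small RNA ends, edgeR, DESeq2 and limma-voom called 0, 2 had an unadjusted p under 0.05, and the block added Hen1. In both knockdowns and between them, edgeR, DESeq2 and limma-voom called 0 genes of these 4 lists.

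The other genes of small RNA precursors fell into those with no counts and those at moderate levels. All 262 miRNA precursor genes had a count of 0 in all 12 libraries. Of 7 other hairpin RNA genes, the 3 that span 155 to 239 bases were also at 0 in every library. The libraries were of poly(A)+ RNA, and whether they can count miRNA precursors or genes this short was not tested. A count of 0 here does not show that the RNA was absent. The 4 that span 1392 to 6457 bases were tested. hpRNA:CR32205 had 23.5, 25.4 and 30.2 TPM in mutant ovary, against 11.5, 16.1 and 12.0 TPM in wild-type ovary (log2 difference 0.84, adjusted p = 0.0242, edgeR). The groups did not overlap, but the call was lost whichever of the 6 libraries was left out (adjusted p 0.0518 to 0.0942). The count of hpRNA:CR32205 was fractional in all 12 libraries, and it overlaps CR33255 on the opposite strand over 389 bases. Its level may therefore include divided pairs. hpRNA:CR33940 differed by 0.31 (adjusted p = 0.065, and 0.0426 with the replicate block), hpRNA:CR46342 by 1.18 (adjusted p = 0.091) and hpRNA:CR32207 by 0.17 (adjusted p = 0.182). DESeq2 called hpRNA:CR32205, hpRNA:CR33940 and hpRNA:CR46342.

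**Figure D5:**
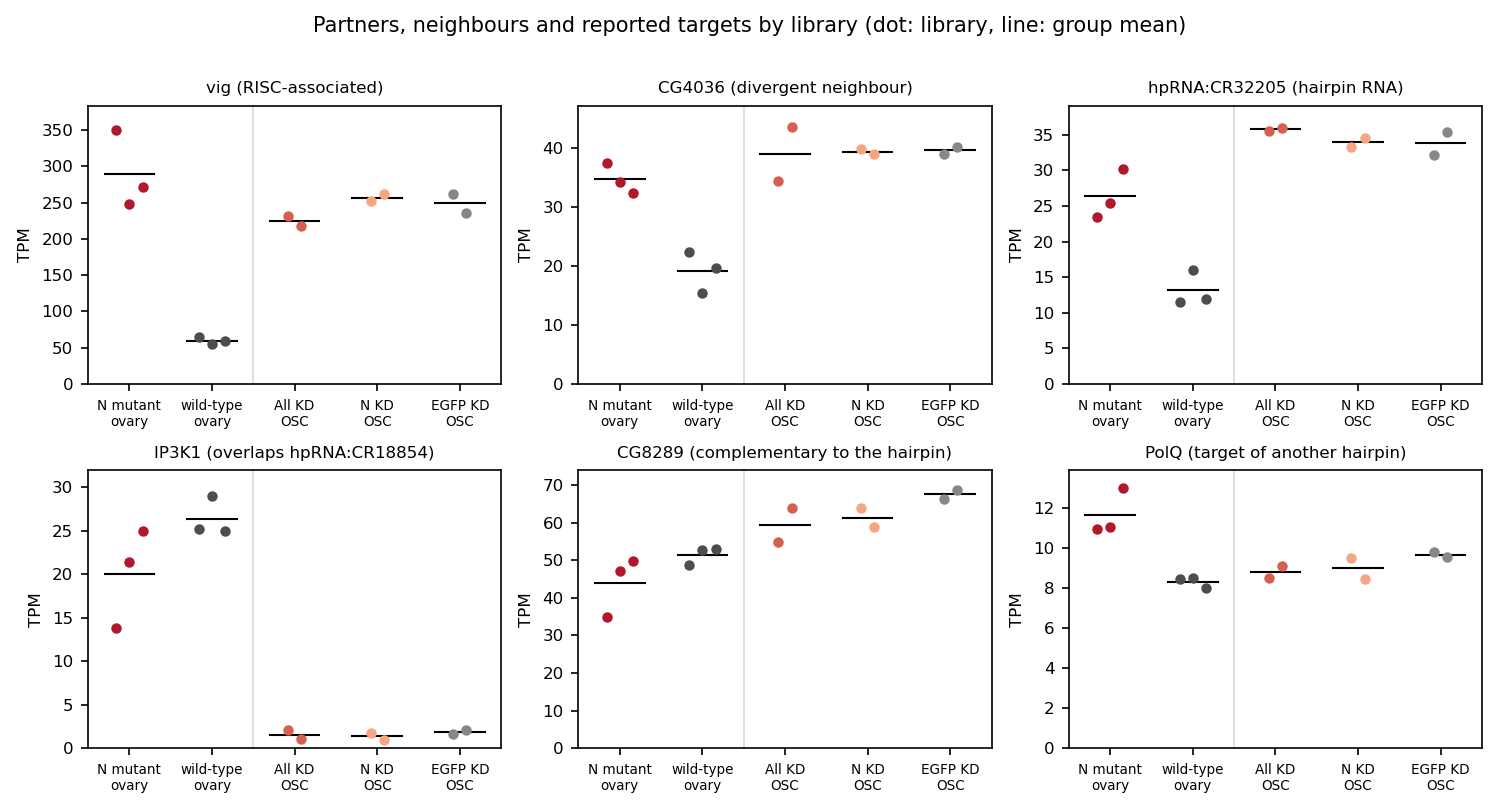
TPM (vertical axes, starting at 0) of vig, CG4036, hpRNA:CR32205, IP3K1, CG8289 and PolQ in every library, with dots for libraries and lines for group means. vig is at 249 to 350 TPM in mutant ovary against 54.7 to 65.3 TPM in wild-type ovary, and CG8289 at 34.9 to 49.7 TPM against 48.7 to 52.9 TPM.

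Of the neighbours of hpRNA:CR18854, CG4036, the gene across the shared upstream region, had 37.4, 34.2 and 32.4 TPM in mutant ovary, against 22.4, 15.4 and 19.6 TPM in wild-type ovary. All mutant libraries were higher, and the log2 difference of 0.86 passed the test (adjusted p = 0.0374, edgeR), though not in 5 of 14 alternatives. These included leaving out mutant replicate 1 or 2 (adjusted p = 0.0977 and 0.115) and wild-type replicate 2 or 3 (adjusted p = 0.113 and 0.0814). Like the hairpin, CG4036 had OSC levels well above those of wild-type ovary (a log2 difference of -1.19 for wild-type ovary against EGFP KD OSC, adjusted p = 0.00388) and was called in neither knockdown. CG13123, the next gene, had 10.8, 13.4 and 14.0 TPM in mutant and 13.2, 13.1 and 16.4 TPM in wild type (log2 difference -0.20, adjusted p = 0.456).

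CG8289, the mRNA that the 3′ arm can pair with over the stretch printed above, had 34.9, 47.1 and 49.7 TPM in mutant ovary, against 48.7, 52.6 and 52.9 TPM in wild-type ovary. The ranges overlapped in TPM but not in scaled counts, and the log2 difference of -0.27 (95% interval -0.45 to -0.08) did not pass the test (adjusted p = 0.0912, edgeR) and passed in none of 14 alternatives. The hairpin RNA was at 5.06 to 8.40 times the TPM of CG8289 in mutant ovary and 0.444 to 0.643 times in wild-type ovary, and at 1.42 to 1.92 times over the 6 OSC libraries. PolQ, the DNA polymerase theta gene (mus308) and a known target of siRNAs from another hairpin, had 11.0, 11.0 and 13.0 TPM in mutant and 8.45, 8.49 and 7.99 TPM in wild type. The log2 difference was 0.45 (adjusted p = 0.0178, edgeR). The call was lost in 3 of 14 alternatives, including those without mutant replicate 2 (0.50, adjusted p = 0.0628) and without wild-type replicate 2 (0.47, adjusted p = 0.0796). The count of PolQ was fractional in all 12 libraries, and it overlaps CG12279 on the opposite strand over 296 bases.

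The genes whose level most resembled that of hpRNA:CR18854 over the 12 libraries, by Pearson correlation of log2(TPM + 1) among 8926 genes, were Apl (0.981), Gar1 (0.978), mEFTu1 (0.977), mge (0.974) and Aldh7A1 (0.972). Each was highest in mutant ovary, intermediate in OSC and lowest in wild-type ovary. Apl averaged 38.1 TPM in mutant and 1.32 TPM in wild-type ovary, and 11.1 to 12.0 TPM in the OSC groups. These 12 points fall into 5 groups, so the correlation mostly describes 3 levels (mutant ovary, OSC and wild-type ovary) and no p is given.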

How the data were processed

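Read pairs from poly(A)+ RNA were mapped by the authors to dm6 with STAR and RSEM. For each of 12 libraries they deposited expected counts, which carry no normalization for depth or length and divide a read pair that matches several genes between them, and TPM, scaled by RSEM for length and library. The kit was stranded, but the listed RSEM parameters name no strand option, so reads from exons that overlap in antisense may be divided between genes, as those of hpRNA:CR18854 and IP3K1 were. A gene with whole counts in every library gave no sign of divided pairs. Totals were 13728168 to 20244538 counts a library, and 15.7% of nonzero counts were not whole. The other assays of the study were not used here.

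Expected counts were rounded. Tests covered genes that exceeded 1 CPM in 3 or more libraries (ovary) or 2 or more (other fits) and used TMM with the quasi-likelihood F test of edgeR 4.0.16 (R 4.3.3, legacy setting), with Benjamini-Hochberg adjustment over all genes tested and no fold threshold. SE was the log2 fold change divided by the square root of F, and 95% intervals were 1.96 SE either side. That multiplier is from the normal distribution, so with so few libraries these intervals are narrower than the F test would give. The labels do not say that replicates were separate cultures or animals, so p-values measure the spread between these samples, which may be technical. Same-numbered mutant and wild-type ovary libraries deviated together (correlations 0.21, 0.34 and 0.27 of deviations from group means), so values blocked by replicate number are given where they change a call. With only 2 libraries a group, this could not be settled for OSC. The alternatives tried were DESeq2 1.42.0, log2(TPM + 1) and voom in limma 3.58.1, RLE scaling, other filters, the newer edgeR algorithm, the block, all OSC libraries in 1 fit and each library left out.

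Coordinates are 1-based in dm6 (Ensembl 115 annotation of Release 6). Sequences came from the RefSeq assembly of Release 6, and matches from blastn 2.17.0 (word size 11, or 7 for the upstream region). Members and gene lists were chosen with earlier results of these data known. The genes named were the members, mod(mdg4), the neighbours of hpRNA:CR18854, list genes called in ovary or a knockdown, and the 5 genes most like hpRNA:CR18854. CG7739, vas, the other hairpin RNA genes and the unadjusted or alternative calls were named after their values were seen. A gene of the list of siRNA effector proteins is not reported here and was left out of its counts.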

Additional observations from a re-analysis of the deposited data

Results flagged for a closer look

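vig encodes a protein found with AGO2. The effect of Mod(mdg4)-N loss on vig differed between mutant ovary and OSC knockdown by a test of the difference itself. That effect was 2.09 larger on the log2 scale in ovary than in OSC (SE 0.27, adjusted p = 0.00856, edgeR interaction over 10 libraries). Tissue, culture, strain and the mode and extent of variant N loss cannot be told apart in this test. The effect itself was 2.22 in ovary, higher in 3 of 3 mutant libraries than in any wild-type library, and 0.11 in OSC. The adjusted p was 0.0777 without Mod(mdg4)-N KD replicate 1 and 0.066 without replicate 2. Wild-type ovary had 54.7 to 65.3 TPM of vig and EGFP KD OSC 236 to 262 TPM, so the tissues also started from different levels.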

How the results depend on the processing

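Counts of called genes over the whole transcriptome moved with the setting, and the cause was not tested. In ovary 1438 genes were called, 2365 with DESeq2, 2279 (1172 higher, 1107 lower in mutant) with the replicate block, and 173 to 1446 when 1 library was left out, lowest without mutant replicate 2 (173) or wild-type replicate 2 (177). For Mod(mdg4)-N KD the count was 2, and 7 with DESeq2, 1 with limma-voom, 26 with no filter, 14 with the block, 0 with all 6 OSC libraries in 1 edgeR fit (140 at an unadjusted p under 0.05) and 3 to 45 with 1 library left out. For Mod(mdg4)-All KD it was 89, and 230, 188, 166 and 178 with DESeq2, no filter, the block and all 6 libraries, and 20 to 293 with 1 left out. For Mod(mdg4)-All over N it was 93, and 214 with DESeq2, 505 with no filter, 28 with the block and 12 to 568 with 1 left out. Same-numbered libraries of these knockdowns deviated in opposite directions (correlation -0.15), and a crossed pairing, chosen after seeing the data, gave 257. The interaction gave 298, and 867 with DESeq2, 676 with the block and 19 to 432 with 1 left out (22 and 19 without Mod(mdg4)-N KD replicate 1 and 2). For wild-type ovary against EGFP KD OSC it was 5973, and 4025 to 6265 with 1 left out. Whether OSC numbers pair libraries is not established.

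Of single-gene values that had passed the test, 1 reversed: AGO1 in wild-type ovary against EGFP KD OSC, 0.16 on log2(TPM + 1) in place of -0.29. Signs changed in 87 of 1826 single-gene values in all, the other ones being of differences that had not passed, among them drosha in 4, Dcr-2 in 2 and loqs in 1 of 14 alternatives in ovary. In the ovary comparison the block changed the call of PAN3, mod(mdg4), hpRNA:CR33940, Rm62, Hen1, twin and Edc3 among the genes named. No member changed its call in ovary under any setting but the 2 given for AGO2. Over all comparisons, 14 single-gene values in other fits and 47 with a library left out lost a call, and 21 and 11 gained one. With 0 counts in libraries of 13728168 to 20244538, no difference could be measured for the miRNA precursor genes and 3 hairpin RNA genes.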
